A study of Homo sapiens with 24 samples.

Results

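The series compared inhibitors of the bromodomain and extra-terminal (BET) proteins in HepG2, an established human liver cancer cell line. The study describes HepG2 as a hepatocellular carcinoma line. This account covers 6 of its 24 RNA-seq libraries, chosen by their treatment labels: 3 libraries of cells treated with 50 nM ABBV-744 and 3 of cells treated with the solvent DMSO. None of the 6 received interferon gamma (IFNg), and both groups were grown in the same serum-containing medium. Further groups of 3 libraries each serve only for direct comparison: ABBV-744 at 500 nM, ABBV-075 at 50 nM, IFNg alone, and IFNg with 50 nM ABBV-744. How long ABBV-744 was given and the dose of IFNg are not given in the sources used here. Whether the DMSO libraries match the ABBV-744 libraries in treatment time is not given either. The libraries are described as triplicates of 1 cell line, and nothing says that the ABBV-744 triplicates were separate cultures, so p-values measure only the spread between these libraries.

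The BET proteins, among them BRD2, BRD3 and BRDT, bind acetylated lysines on histones through a pair of bromodomains, BD1 and BD2. BET proteins help recruit the kinase complex P-TEFb, which releases paused RNA polymerase II into elongation, while HEXIM1 with the 7SK RNA holds P-TEFb inactive. ABBV-744 is selective for BD2, and ABBV-075 (mivebresib) is a pan-BET inhibitor that binds both domains. In liver cells BET proteins occupy enhancers of highly transcribed tissue genes, and HepG2 keeps much of the hepatocyte program, including plasma proteins, bile acid enzymes and lipid metabolism.

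The response markers DHRS2 and GPAM moved in opposite directions, and the third, HEXIM1, did not pass the test. DHRS2, a mitochondrial short-chain dehydrogenase/reductase, was at 2215, 2125 and 2089 CPM (counts scaled to 1000000 per library, with library sizes adjusted by trimmed mean of M-values) in the DMSO libraries and at 6947, 7405 and 6847 CPM in the ABBV-744 libraries. Every treated library was far above every control, and the log2 fold change was 1.72 (SE 0.095, adjusted p = 8.02e-13). The test here and below is edgeR's quasi-likelihood test, with p adjusted by Benjamini and Hochberg over all 11116 genes tested. GPAM, the mitochondrial acyltransferase that begins glycerolipid synthesis, was at 158, 212 and 192 CPM with DMSO and at 75.4, 51.4 and 62.4 CPM with ABBV-744. The lowest control was about 2 times the highest treated library, and the log2 fold change was -1.57 (SE 0.13, adjusted p = 4.43e-09). HEXIM1 was at 53.6, 56.9 and 50.5 CPM with DMSO and at 67.4, 68.4 and 60.5 CPM with ABBV-744. The groups did not overlap for HEXIM1, but the log2 fold change of 0.29 (SE 0.12) had an adjusted p of 0.082. These 3 markers came with the choice of the comparison, which was made with earlier results of these data known, so their direction is a description of these libraries.

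The sequences before the starts of these genes differ in base composition, which is separate from the GC content of their transcripts used further on. The 250 bases upstream of the RefSeq gene start (GRCh38.p14) are printed 5′ to 3′ for the 3 markers and for SLC2A2, the glucose transporter of hepatocytes described among the strongest decreases. Capitals mark matches, on either strand, to the GC box (GGGCGG). They also mark the CCAAT box, which is named by its letters. The E-box was searched as CACGTG. The TATA box was searched as TATAAA. DHRS2 is at chr14:23629865-23630114 on the plus strand, GPAM at chr10:112183766-112184015 on the minus strand, SLC2A2 at chr3:171026721-171026970 on the minus strand and HEXIM1 at chr17:45148225-45148474 on the plus strand.
DHRS2: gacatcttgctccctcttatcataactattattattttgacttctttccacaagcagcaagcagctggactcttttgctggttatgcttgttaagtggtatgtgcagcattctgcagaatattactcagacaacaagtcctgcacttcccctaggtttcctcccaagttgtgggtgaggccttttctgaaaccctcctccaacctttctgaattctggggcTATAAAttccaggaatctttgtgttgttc
GPAM: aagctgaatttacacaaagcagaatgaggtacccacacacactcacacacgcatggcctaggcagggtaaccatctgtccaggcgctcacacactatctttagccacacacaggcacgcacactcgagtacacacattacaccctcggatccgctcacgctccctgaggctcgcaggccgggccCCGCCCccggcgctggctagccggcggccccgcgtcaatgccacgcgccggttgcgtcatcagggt
SLC2A2: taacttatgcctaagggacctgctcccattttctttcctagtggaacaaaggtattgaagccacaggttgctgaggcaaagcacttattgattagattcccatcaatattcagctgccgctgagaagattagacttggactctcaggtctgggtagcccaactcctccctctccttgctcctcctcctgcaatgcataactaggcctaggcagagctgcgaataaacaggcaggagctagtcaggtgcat
HEXIM1: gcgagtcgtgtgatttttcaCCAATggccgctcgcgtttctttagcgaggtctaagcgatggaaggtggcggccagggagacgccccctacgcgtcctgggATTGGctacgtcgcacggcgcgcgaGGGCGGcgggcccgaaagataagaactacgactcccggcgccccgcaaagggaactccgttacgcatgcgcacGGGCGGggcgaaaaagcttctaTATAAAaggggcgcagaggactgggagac
GC content was 43.2% for DHRS2, 62.0% for GPAM, 48.8% for SLC2A2 and 62.4% for HEXIM1. The DHRS2 stretch held no CpG and 1 TATA box match, whereas the HEXIM1 stretch held 31 CpG, 2 GC box matches, 2 CCAAT box matches and 1 TATA box match. GPAM had 20 CpG and 1 GC box match, and SLC2A2 had 2 CpG and none of these motifs. Among 27305 promoter windows of the same length, 42.3% held the GC box letters, 33.0% the CCAAT box, 11.1% the TATA box and 6.49% the E-box. The motif letters describe these windows only.

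Over all genes, changes were frequent and small. At an adjusted p of 0.05, 979 genes (8.81% of those tested) were higher and 1123 (10.1%) were lower with 50 nM ABBV-744. The median log2 fold change was 0.50 among the genes called higher and -0.55 among those called lower, and 51 and 92 of them reached a log2 fold change of 1 in size. With the study's cutoff of 1.5 on the log2 scale added, 10 genes (0.09%) were upregulated and 21 (0.189%) downregulated. The libraries of the groups did not overlap for 4018 genes (36.1%), including 1971 of the 2102 called and all 31 past the cutoff. Of these 31, 24 had a mean below 3 on the log2 CPM scale. The strict count depended on the tool: DESeq2 passed 1 gene up and 2 down, and left many low-count genes without an adjusted p. Scaling by library size alone gave 415 genes higher and 1220 lower, with the median log2 fold change of all genes moved by -0.10. Single libraries weighed on the number of calls: 330 genes were higher and 379 lower without DMSO replicate 2, 432 and 468 without DMSO replicate 3, and 565 and 591 without ABBV-744 replicate 3, while 38 genes passed the cutoff downward without ABBV-744 replicate 1.

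**Figure D1:**
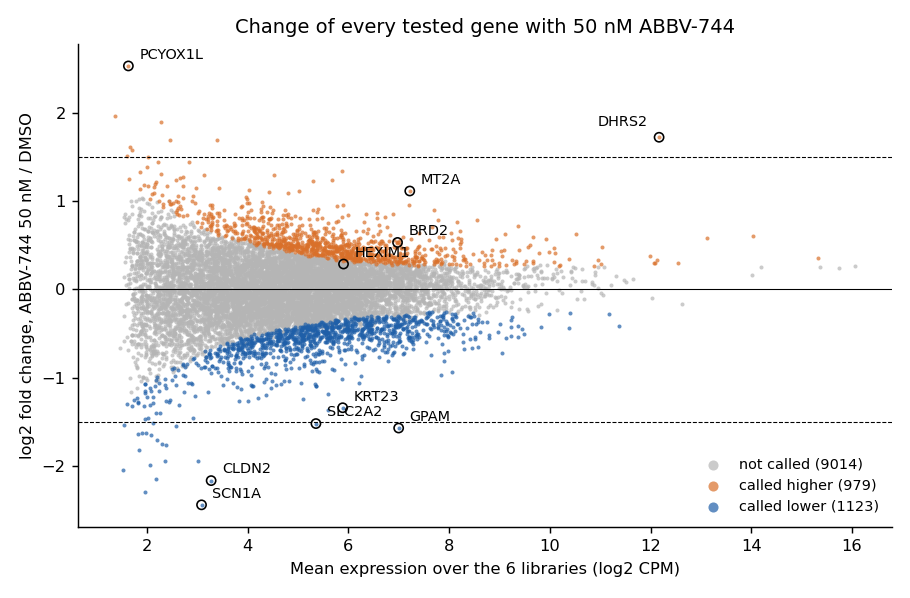
Each point is 1 of the 11116 tested genes, with its mean log2 CPM over the 6 libraries on the x axis and its log2 fold change of 50 nM ABBV-744 over DMSO on the y axis; dashed lines mark the cutoff of 1.5. DHRS2 stands alone above the upper line at high expression, while most other genes past the cutoff lie below 3 on the log2 CPM scale.

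The libraries themselves differed between the groups. The files held 24742899 to 25888563 reads per DMSO library and 25045625 to 27760009 per ABBV-744 library, of which 3706857 to 4304103 and 3174722 to 3463272 were counted on genes. Reads aligned to several places took 56.0% to 61.0% of the DMSO reads and 66.2% to 69.4% of the ABBV-744 reads. The GC content of the longest transcript, weighted by counts, was 51.4% to 52.0% with DMSO and 52.4% to 53.5% with ABBV-744. Hepatocyte markers were abundant in all 6 libraries, summing to 20300 to 21800 CPM with DMSO and 20900 to 22900 CPM with ABBV-744. The sum hides members that went both ways as measured. ALB (log2 fold change -0.412, adjusted p = 0.0091) and AFP (-0.424, adjusted p = 0.013) were lower. APOA1 (0.483, adjusted p = 0.0011), SERPINA1 (0.301, adjusted p = 0.027) and HNF4A (0.315, adjusted p = 0.026) were higher. APOB, TF and TTR were not called. Of the 10 immune markers, 5 were at 0 in every library, PTPRC, CD3E and MS4A1 among them, and LYZ made up nearly all of the sum of 1650 to 1770 CPM with DMSO and 1440 to 1690 CPM with ABBV-744. The 12 stromal and endothelial markers summed to 30.0 to 30.5 CPM and 27.3 to 29.6 CPM, with 5 at 0 in every library, COL1A2, COL3A1 and DCN among them. The 6 biliary markers summed to 817 to 847 CPM with DMSO and 706 to 717 CPM with ABBV-744, with KRT7 and CFTR at 0 in every library. Fewer cells that express a gene and less RNA per cell cannot be told apart in bulk libraries.

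Fold change followed transcript GC content. Spearman's correlation across the 10946 genes with a GC value was 0.59, given as a description because the genes share the same 6 libraries. In 5 bins of equal size, from the lowest GC content to the highest, the median log2 fold change ran through -0.32, -0.18, 0.03, 0.17 and 0.25. In the bin with the lowest GC content 26.6% of genes were called lower and 0.457% higher, and in the bin with the highest 0.868% were lower and 20.6% higher. Each of the 3 ABBV-744 libraries had the same sign of relation against the DMSO mean, with coefficients of 0.40, 0.66 and 0.44 for replicates 1, 2 and 3. Among the DMSO libraries, each set against the mean of the other 2, the coefficients were 0.32, -0.29 and -0.06. A smooth GC trend was therefore removed from each library in a second fit, after which the coefficient was 0.01, 623 genes (5.6%) were higher and 573 (5.15%) lower. Genes called in the same direction in both fits numbered 409 higher (3.68%) and 393 lower (3.54%), so 570 and 730 of the calls were not kept. Of the 31 genes past the cutoff, 29 kept an adjusted p of 0.05 and 18 kept the cutoff as well. Which part of the trend came from the libraries and which from the treatment cannot be told apart, and GC-corrected values are given beside those as measured. A call is named kept where it had the same direction in both fits, which leaves out 214 genes called higher and 180 called lower after correction only. Counts of list members below are to be read beside the shares of all genes. These were 8.81% higher and 10.1% lower as measured, and 3.68% and 3.54% kept.

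**Figure D2:**
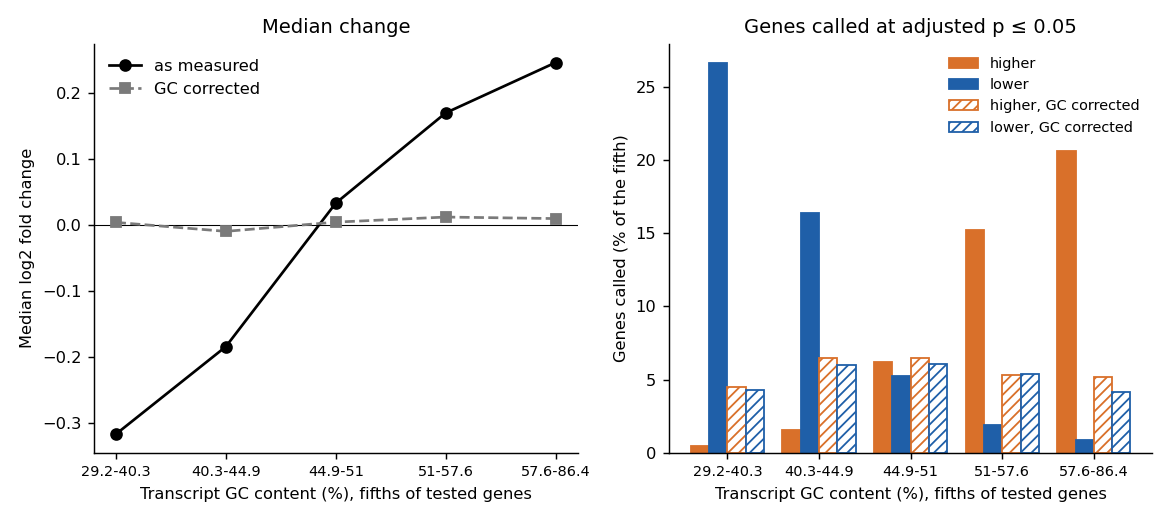
The left panel plots the median log2 fold change of 50 nM ABBV-744 over DMSO in 5 equal bins of genes ordered by transcript GC content (%), as measured and after GC correction; the right panel plots the percentage of each bin called higher or lower. As measured, the median runs from -0.32 to 0.25 and the calls switch from lower to higher; after correction the medians lie between -0.01 and 0.01.

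At a mean log2 CPM of 3 or more, the strongest increases described here besides DHRS2 were TAF6, TST, SUGP1, ASF1B, RAVER1, EGR1, MBD6 and MT2A. TAF6, a subunit of the general transcription factor TFIID, was at 4.51, 6.44 and 3.81 CPM with DMSO and at 13.9, 16.7 and 17.8 CPM with ABBV-744 (log2 fold change 1.69, SE 0.24, adjusted p = 3.41e-05). TST, the mitochondrial sulfurtransferase rhodanese, rose from 36.6, 30.2 and 33.6 CPM to 78.6, 103 and 72.3 CPM (1.34, SE 0.14, adjusted p = 1.94e-07). Absence of overlap between the groups was part of the rule that chose these genes. ASF1B, a histone chaperone used in DNA replication, had a log2 fold change of 1.24 (SE 0.12, adjusted p = 1.94e-07). The immediate early transcription factor EGR1 was at 5.04, 7.11 and 7.62 CPM against 14.5, 14.5 and 15.3 CPM (1.15, SE 0.22, adjusted p = 0.0011). The splicing regulators SUGP1 and RAVER1 rose by 1.29 (adjusted p = 0.0011) and 1.23 (adjusted p = 2.14e-06), and the methyl-CpG-binding domain protein MBD6 by 1.12 (adjusted p = 2.78e-04). After GC correction these genes kept their call, at log2 fold changes from 0.89 for MBD6 to 1.63 for DHRS2.

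The strongest decreases at that level were SCN1A, CLDN2, AKR1D1, GPAM, SLC2A2, CCL20, KRT23, PDZK1, CACNB4 and CEMIP. SLC2A2, the low-affinity glucose transporter GLUT2, fell from 56.5, 59.8 and 58.3 CPM to 26, 13.5 and 21.0 CPM (log2 fold change -1.52, SE 0.16, adjusted p = 3.46e-07). KRT23, a type I keratin, fell from 85.9, 79.3 and 81.9 CPM to 31.9, 29.2 and 36.3 CPM (-1.34, SE 0.12, adjusted p = 6.44e-08). CCL20, a chemokine that attracts CCR6-bearing lymphocytes, fell from 66.0, 65.1 and 71.6 CPM to 21.0, 30.5 and 27.1 CPM (-1.37, SE 0.14, adjusted p = 1.94e-07). The controls of these genes were tightly grouped and at least about 2 times the treated libraries. CEMIP, a hyaluronan-degrading protein, fell from 42.7, 43.8 and 51.4 CPM to 19.8, 18.3 and 20.1 CPM (-1.24, SE 0.15, adjusted p = 2.85e-06). PDZK1, a scaffold of apical transporters and of the HDL receptor, had a log2 fold change of -1.26 (SE 0.20, adjusted p = 1.54e-04). The voltage-gated sodium channel SCN1A went from 54, 54 and 48 counts to 8, 5 and 9 (-2.44, SE 0.30, adjusted p = 4.78e-06). The tight junction protein CLDN2 went from 57, 53 and 65 counts to 15, 11 and 4 (-2.17, SE 0.30, adjusted p = 2.17e-05). The calcium channel subunit CACNB4 had a log2 fold change of -1.26 (SE 0.22, adjusted p = 4.57e-04). GC correction left all 10 called, from -0.87 for CACNB4 to -2.30 for CLDN2; KRT23, CLDN2 and CEMIP, whose transcripts have 50.7%, 52.4% and 53.1% GC, became more negative.

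**Figure D3:**
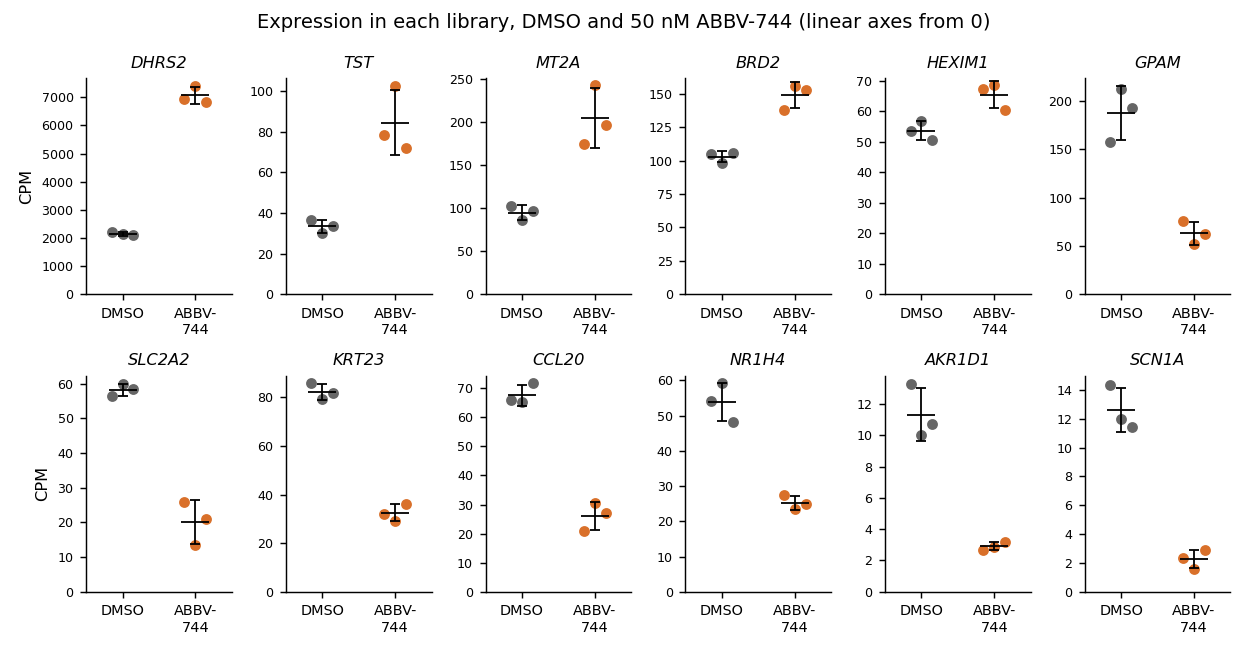
Points are the CPM of each library on linear axes that start at 0, for DMSO on the left and 50 nM ABBV-744 on the right of each panel; bars give the mean and SD of 3 libraries. The groups do not overlap for any of the 12 genes, including HEXIM1, whose treated libraries at 60.5 to 68.4 CPM lie closest to their controls.

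The remaining genes past the cutoff of 1.5 were low. Upregulated were PCYOX1L, BLACAT1, STOML1, MEGF6, PDGFA, LINC00467, ZNF213 and LRFN3. PCYOX1L had the largest log2 fold change, 2.53 (SE 0.47, adjusted p = 6.37e-04), from 2, 5 and 3 counts with DMSO and 10, 17 and 19 with ABBV-744. PDGFA, a platelet-derived growth factor, had 6, 6 and 5 counts against 17, 15 and 9 (1.62, adjusted p = 0.0089). Counts this small leave the size of each change uncertain, as the standard errors of 0.32 to 0.47 over these 8 genes show. Downregulated were CCAT1, GRAP, NPR2, ODAM, LAMA3, P2RY8, UNC93A, CYP19A1, WBP5, CXCL8, ASAH2, TMEM74B, TNFSF4, MBL2, SULT1C4 and GDPD1. CYP19A1, the aromatase, went from 29, 27 and 23 counts to 5, 9 and 4 (-1.75, SE 0.37, adjusted p = 0.0023). MBL2, the mannose-binding lectin of hepatocytes, went from 29, 21 and 45 counts to 10, 7 and 8 (-1.55, SE 0.36, adjusted p = 0.0043). GRAP, a signalling adaptor, went from 23, 26 and 27 counts to 6, 3 and 4 (-2.15, SE 0.39, adjusted p = 5.00e-04). CCAT1 and BLACAT1 are long non-coding RNAs. ASAH2 and SULT1C4 were not called after GC correction, with adjusted p of 0.052 and 0.051.

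Among the BET genes described here, BRD2 rose and BRD3 did not pass. BRD2 was at 105, 98.4 and 106 CPM with DMSO and at 138, 156 and 153 CPM with ABBV-744 (log2 fold change 0.53, SE 0.099, adjusted p = 7.19e-04). It kept its call after GC correction, at 0.39. BRD3 had a log2 fold change of 0.38 (SE 0.22, adjusted p = 0.23), and the testis protein BRDT had no count in any of the 6 libraries. Of 12 genes of P-TEFb and the 7SK complex, none was higher and 1 was lower: the elongation factor ELL2 (-0.51, adjusted p = 0.0010), whose GC-corrected value of -0.22 was not called. MYC, a much studied BET target, was at 99.7, 103 and 121 CPM with DMSO and at 86.0, 104 and 93.3 CPM with ABBV-744, with overlapping groups (-0.19, SE 0.11, adjusted p = 0.22).

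Histone genes were called higher in 14 of 47 tested and lower in 1, and 8 and 1 of these calls stayed after GC correction. Their median log2 fold change was 0.26, against 0.00 over all genes, and 0.08 after correction. HIST4H4, with 44.7% GC, was at 114, 104 and 102 CPM with DMSO and at 137, 171 and 148 CPM with ABBV-744 (0.51, SE 0.10, adjusted p = 0.0015). HIST1H2BM was the only one called lower as measured, at 61.3, 57.8 and 55.5 CPM against 31.3, 37.9 and 36.3 CPM (-0.73, SE 0.13, adjusted p = 3.74e-04). After correction 9 of the 47 were called higher and 4 lower. Histone genes are near-identical copies, and reads shared between them were left out of the counts, so the single genes are uncertain. Metallothioneins, which bind zinc and copper, were higher in 4 of 7 and lower in none, and all 4 kept the call after correction. MT2A was at 102, 85.6 and 96.9 CPM with DMSO and at 175, 243 and 197 CPM with ABBV-744 (1.11, SE 0.11, adjusted p = 2.03e-07), while MT1X, MT1E and MT1G had log2 fold changes of 0.73, 0.59 and 0.58. Members of this family are similar in sequence, which leaves the single values uncertain.

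Bile acid genes included some of the larger decreases. Of 14 tested, 5 were lower and 2 higher, and after GC correction all 5 decreases and neither increase were kept. AKR1D1, the 5-beta-reductase of bile acid synthesis, fell from 50, 45 and 45 counts to 9, 9 and 10 (log2 fold change -1.94, SE 0.29, adjusted p = 5.97e-05). NR1H4, the bile acid receptor FXR, fell from 54.1, 59.3 and 48.3 CPM to 27.5, 23.5 and 24.8 CPM (-1.09, SE 0.14, adjusted p = 6.50e-06). SLC51B, a subunit of the basolateral bile acid exporter, had a log2 fold change of -1.20 (SE 0.27, adjusted p = 0.0034), and the canalicular exporter ABCC2 of -0.37 (SE 0.090, adjusted p = 0.0056). The list's median was -0.09 and its GC-corrected median -0.15, over members called in both directions.

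Of 43 genes of fatty acid and triglyceride metabolism, 9 were lower and 3 higher, and 7 and 3 were kept after GC correction. The decreases besides GPAM included ACSL4, which activates arachidonic acid, at 147, 151 and 138 CPM against 102, 75.2 and 85.6 CPM (-0.73, SE 0.11, adjusted p = 8.06e-05). PLIN2, the coat protein of lipid droplets, was at 276, 280 and 280 CPM against 169, 207 and 170 CPM (-0.61, SE 0.097, adjusted p = 1.29e-04; -0.64 after correction). FASN, the fatty acid synthase, was higher, at 257, 234 and 233 CPM against 361, 396 and 321 CPM (0.57, SE 0.096, adjusted p = 2.34e-04; 0.32 after correction). Genes of cholesterol synthesis were lower in 7 of 26 and higher in 3, of which 2 and 1 were kept; HMGCS1 at -0.50 became -0.21 with an adjusted p of 0.17. Among 23 short-chain dehydrogenases, 5 were higher and 1 lower, and of these DHRS2 and DCXR were kept. DCXR, the xylulose reductase, was at 165, 161 and 159 CPM against 252, 321 and 264 CPM (0.79, SE 0.099, adjusted p = 5.96e-06).

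Plasma proteins of hepatocytes went both ways, with 6 of 33 higher and 7 lower, beside 8.81% and 10.1% of all genes. After GC correction 1 and 4 of these calls were kept. Complement C3 rose from 661, 667 and 599 CPM to 879, 973 and 876 CPM (0.50, SE 0.090, adjusted p = 4.78e-04). CPB2, an inhibitor of fibrinolysis, fell from 84.3 to 111 CPM with DMSO to 44.7 to 53.2 CPM with ABBV-744, with no overlap (-0.98, SE 0.12, adjusted p = 5.53e-06). Apolipoproteins were higher in 3 of 11 and lower in 1: APOA1 rose by 0.48 (adjusted p = 0.0011) and stayed called, and APOA2 and APOE were not called after correction. Of 28 liver transcription factors, 5 were higher and 5 lower, and only the decreases of PROX1 (-0.69, adjusted p = 0.0011) and KLF6 (-0.50, adjusted p = 0.0037) were kept. Among 19 genes of drug metabolism, 5 were lower and none higher, and 3 were kept: SULT2A1, which sulfates steroids and bile acids, at -0.85 (adjusted p = 2.05e-05), ALDH1A1 at -0.71 and ADH4 at -1.45. Glucose metabolism was split, with 6 of 28 higher and 4 lower, and 4 and 3 kept, the decreases including the kinases HK2 (-0.53, adjusted p = 0.0014) and PDK1 (-0.76, adjusted p = 0.0011). Amino acid and urea cycle enzymes were higher in 2 of 30 and lower in 1, and of these FAH was kept at 0.43.

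Inflammatory mediators fell more often than they rose. Of 18 tested, 6 fell and 1 rose, and 5 and 1 were kept after GC correction; the median log2 fold change was -0.32 as measured and -0.54 after correction. CXCL8, the neutrophil chemokine interleukin-8, went from 16, 23 and 27 counts to 8, 5 and 3 (-1.65, SE 0.40, adjusted p = 0.0056; 0.049 after correction). CCL16, a liver chemokine, had a log2 fold change of -1.47 (SE 0.39, adjusted p = 0.0099), and TNFAIP3, the A20 inhibitor of NF-kB signalling, of -0.54 (SE 0.14, adjusted p = 0.0084). Interferon response genes were higher in 3 of 34, close to the 8.81% of all genes, and lower in none, with TAPBP, the peptide-loading factor tapasin, at 0.62 (adjusted p = 0.0062) the call that was kept. HLA-E, at 0.35, lost its call, and its relatives share reads with it. Of a list of glycosyltransferases and lipid signalling genes, 5 of 11 were lower and 1 higher, and 4 of the decreases were kept. DGKK, a diacylglycerol kinase, was at 66.8, 65.1 and 64.0 CPM against 32.8, 26 and 27.4 CPM (-1.18, SE 0.13, adjusted p = 7.14e-07), and PCYT1B, an enzyme of phosphatidylcholine synthesis, had a log2 fold change of -1.07 (SE 0.14, adjusted p = 5.96e-06). The list was drawn up with earlier results of this series known, so it is not independent evidence of direction.

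Growth and cell cycle lists moved in different ways with GC correction. Mitosis genes were lower in 9 of 43 and higher in 1, but only the decrease of ECT2 was kept (-0.73, adjusted p = 0.0013; -0.42 after correction). CDK1 went from -0.55 to -0.20 and TOP2A from -0.51 to -0.23, and neither was called after correction; the median transcript GC of the list was 42.1%, against 47.6% over all genes. DNA replication genes were higher in 5 of 43 and lower in 3, against 8.81% and 10.1% of all genes, with 2 increases kept, among them the primase-associated subunit POLA2 at 0.63 (adjusted p = 5.89e-04). Of 16 cyclin D and CDK inhibitor genes, GADD45B was higher and CDK6 lower (-0.54, adjusted p = 0.0058), and only CDK6 was kept. Of 32 MYC-linked and nucleolar genes, 5 were lower and 1 higher, and GNL3, WDR43 and NOP58 were kept, with GC-corrected values of -0.43, -0.37 and -0.31, among 7 called lower after correction. The median of the MYC-linked list was -0.09 as measured and -0.16 after correction. Cytosolic ribosomal proteins were higher in 10 of 81 and lower in 1, with 2 increases kept, while 13 were called higher after correction. No BCL2 family gene of 13 was called by edgeR before or after correction, nor by DESeq2; 2 had an unadjusted p below 0.05 in each of these fits.

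Stress genes had more decreases than increases among their calls, as did all genes tested, with 10.1% lower and 8.81% higher. Heat shock genes fell in 6 of 18 and rose in 2, with 3 decreases kept, among them the mitochondrial chaperonin HSPD1 (-0.54, adjusted p = 0.0013; -0.25 after correction). Integrated stress response genes fell in 4 of 20 and rose in none. Only the pseudokinase TRIB3 was kept (-0.46, adjusted p = 0.0042, and -0.70 after correction), beside 3.54% of all genes kept lower. Of 20 growth factor and Hippo genes, 3 were higher and 2 lower, beside 8.81% and 10.1% of all genes. IGF2 (0.95, SE 0.12, adjusted p = 7.54e-06), VAV3 (-0.88) and MET (-0.65) were kept. Among RNAs that stay in the nucleus, NEAT1, the scaffold of paraspeckles, was the 1 of 7 called: it was at 147, 172 and 142 CPM with DMSO and at 269, 253 and 230 CPM with ABBV-744 (0.70, SE 0.10, adjusted p = 3.27e-05; 0.81 after correction). Small structured RNAs were higher in 5 of 24 and lower in none, and none of the 5 was kept, while 2 were called higher after correction. SR splicing factors were lower in 5 of 17 and higher in none, with a median of -0.21 and of 0.05 after correction, and none was kept. Small nucleolar RNA host genes were lower in 2 of 15, near the 10.1% of all genes, with SNHG10 kept at -0.65 after correction. SNHG10 nevertheless lost its call in 9 of 21 alternative fits, among them DESeq2 and the replicate block. Of the marker lists, 2 of 3 tested stromal genes were lower, PDGFRB (-1.25, adjusted p = 0.0097) and LYVE1 (-1.11, adjusted p = 0.020, not kept), and neither tested immune gene was called. EPCAM and SPP1 were lower and SOX9 higher among 4 biliary genes, and all 3 were kept.

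**Figure D4:**
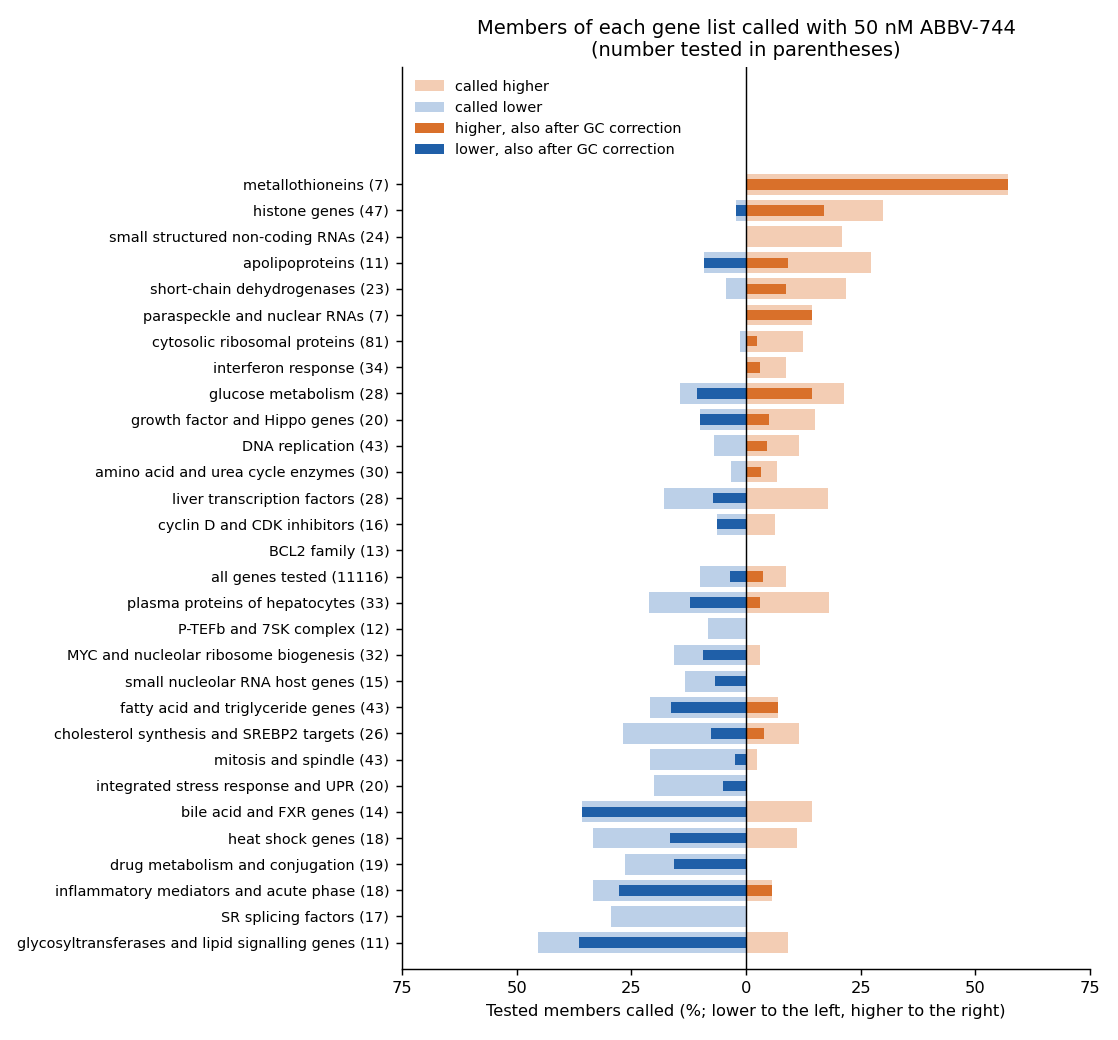
Bars give the percentage of tested members of each list called lower (left) or higher (right) with 50 nM ABBV-744; pale bars are calls as measured and dark bars the calls that also hold after GC correction. Metallothioneins kept all of their calls, while SR splicing factors and small structured RNAs kept none.

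The difference between the doses of ABBV-744 was tested directly, without a replicate block, and its count of calls depended on the fit. ABBV-744 at 500 nM differed from 50 nM in 3 of 10967 genes (0.0274%), all lower at 500 nM, and 633 had an unadjusted p below 0.05; DESeq2 called 1 gene higher and 4 lower. Without ABBV-744 50 nM replicate 3 edgeR called no gene (554 had an unadjusted p below 0.05), and without its replicate 2 there were 1 higher and 9 lower. PA2G4, a growth regulator that binds ERBB3, was at 206 to 234 CPM at 50 nM and at 123 to 129 CPM at 500 nM (log2 fold change -0.85, SE 0.11, adjusted p = 0.0013), where CPM is scaled over all 24 libraries. PXDC1 was at 49.2 to 55.6 CPM and 21.8 to 26.9 CPM (-1.09, SE 0.15, adjusted p = 0.0023), and PRRC1 at 78.9 to 89.8 CPM and 49.0 to 56.1 CPM (-0.73, SE 0.13, adjusted p = 0.035). The DMSO libraries were at 221 to 264 CPM for PA2G4 and 85.3 to 111 CPM for PRRC1, which the 50 nM libraries overlapped, and at 61.7 to 74.2 CPM for PXDC1, above the 50 nM libraries. DHRS2 was at 6832 to 7242 CPM at 50 nM and at 9923 to 10912 CPM at 500 nM, and the difference of 0.56 (95% interval 0.33 to 0.80) had an adjusted p of 0.089, but passed after GC correction (0.59, adjusted p = 1.97e-04). HEXIM1 was at 60.3 to 68.0 CPM and 84.3 to 93.9 CPM, a difference of 0.45 (interval 0.20 to 0.71, adjusted p = 0.43). GPAM was at 50.3 to 76.0 CPM and 37.5 to 55.2 CPM, with a difference of -0.41 (interval -0.75 to -0.08, adjusted p = 0.77). SLC2A2 and KRT23 had differences of 0.01 (interval -0.44 to 0.46) and -0.15 (interval -0.48 to 0.18). Spearman's correlation of the dose difference with GC content was -0.42, and GC correction gave 1 gene higher and 15 lower. A replicate block, which treats same-numbered libraries as pairs, gave 180 genes higher and 140 lower in edgeR's test. It also passed DHRS2, GPAM and HEXIM1 (adjusted p = 2.55e-16, 0.012 and 9.49e-04). Whether the numbers pair the libraries is not given in the sources used here.

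ABBV-075 at the same 50 nM differed from ABBV-744 in 4481 of 10992 genes (40.8%), 2352 higher and 2129 lower, and in 1805 and 1964 after GC correction. The counts were 1371 and 1325 without ABBV-744 replicate 2 and 1457 and 1194 without ABBV-075 replicate 2. It was given for 12 h; the duration of ABBV-744 is not known, so the pair is matched in dose only. The correlation of this difference with GC content was -0.62. DHRS2 was at 14116 to 16844 CPM with ABBV-075, higher than with ABBV-744 by 1.09 (SE 0.13, adjusted p = 5.61e-04). HEXIM1 was at 137 to 152 CPM with ABBV-075, higher by 1.14 (SE 0.12, adjusted p = 3.00e-04; 1.27 after GC correction). GPAM was at 15.0 to 30.2 CPM, with a difference of -1.49 (SE 0.24, adjusted p = 0.0019). None of the ABBV-075 libraries overlapped the ABBV-744 libraries for these markers. KRT23 (-1.65, adjusted p = 4.03e-04), SLC2A2 (-1.12, adjusted p = 0.0097), CEMIP (-1.07, adjusted p = 0.0026) and PDZK1 (-1.05, adjusted p = 0.021) were also lower. CCL20 did not pass, with a difference of 0.07 (interval -0.39 to 0.53), and after GC correction its difference was -0.81, lower with ABBV-075 (adjusted p = 0.021). For TST, ASF1B, RAVER1, EGR1 and MBD6 the difference did not pass, with intervals that together ran from -0.83 to 0.61; after GC correction TST and ASF1B were higher with ABBV-075, at 0.59 each (adjusted p = 0.0011 and 0.0023).

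Beside the comparisons with DMSO, which share the control libraries, the markers stood as follows. DHRS2 had a log2 fold change of 1.72 with 50 nM ABBV-744, 2.28 with 500 nM and 2.79 with ABBV-075. GPAM had -1.57, -1.99 and -3.09, and HEXIM1 0.29, 0.74 and 1.41. SCN1A differed from this order, with -2.44, -2.11 and -2.37, as did CCL20 with -1.37, -1.44 and -1.33.

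**Figure D5:**
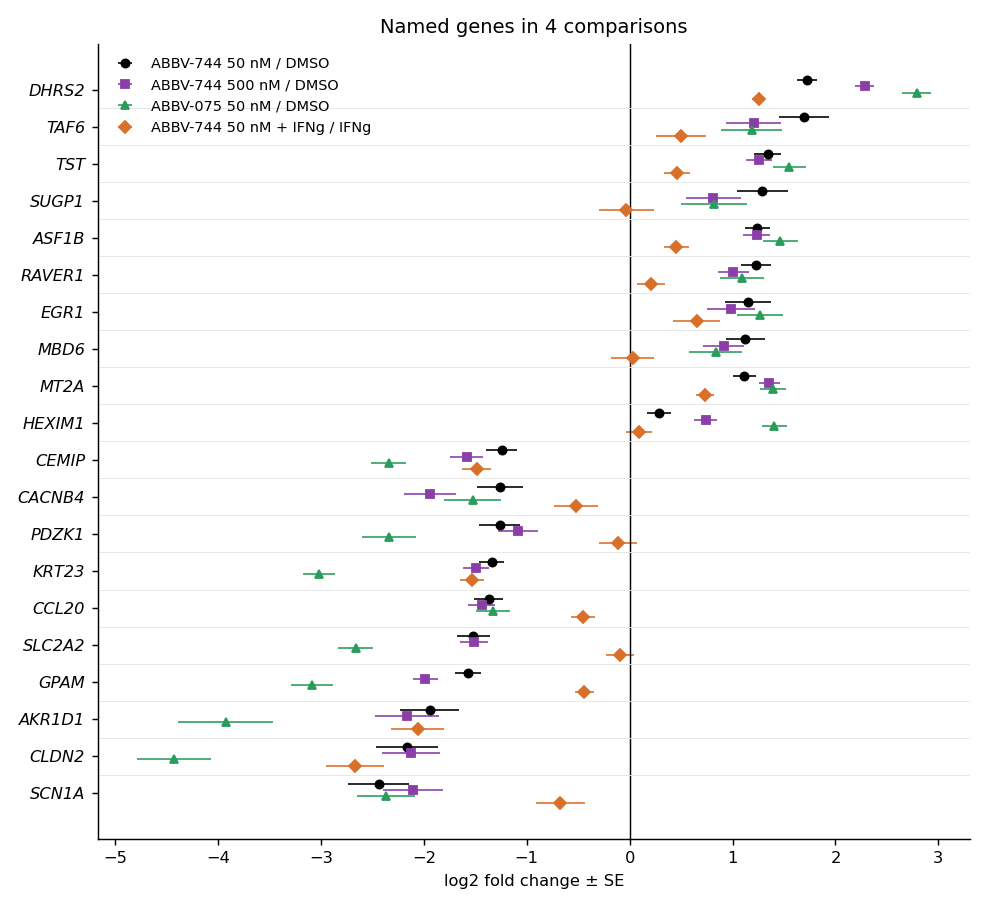
Points are log2 fold changes with their SE for 20 named genes in 4 comparisons: 50 nM ABBV-744, 500 nM ABBV-744 and 50 nM ABBV-075 over the same DMSO libraries, and 50 nM ABBV-744 with IFNg over IFNg alone. GPAM, SLC2A2, KRT23, AKR1D1 and CLDN2 lie lowest with ABBV-075, and the increases of SUGP1 and MBD6 lie near 0 with IFNg.

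The same dose in IFNg-treated cells gave a separate set of libraries for the comparison. With IFNg, 50 nM ABBV-744 raised 3060 of 11150 genes (27.4%) and lowered 2706 (24.3%), and 1818 and 2024 after GC correction. The relation with GC content had the opposite sign there, with a coefficient of -0.68, and the count-weighted GC content was 49.8% to 50.2% with the drug against 51.8% to 52.3% with IFNg alone. Of the 1111 genes called lower without IFNg and tested with it, 21.2% had the same direction, and 49.8% after both fits were GC corrected; of 973 called higher the shares were 36.2% and 71.3%. Over all genes with a negative value without IFNg these shares were 34.8% and 52.3%, and over those with a positive value 32.3% and 52.7%. Of the 1111 decreases, 722 were called in the opposite direction with IFNg as measured and 308 after correction. Among genes past the cutoff of 1.5, 6 of 7 upregulated and 15 of 17 downregulated had the same direction, 3 and 10 of them called. DHRS2 rose with IFNg too, at 5371 to 5616 CPM against 2311 to 2368 CPM with IFNg alone (1.25, adjusted p = 7.09e-16). GPAM was at 109 to 114 CPM against 133 to 166 CPM (-0.44, adjusted p = 2.24e-04). KRT23 also fell, with a log2 fold change of -1.53 (adjusted p = 1.37e-12), as did CEMIP with -1.49 (adjusted p = 1.61e-10), AKR1D1 with -2.06 (adjusted p = 3.64e-08) and CLDN2 with -2.67 (adjusted p = 1.37e-09). For these 4 genes the interaction of drug and IFNg did not pass, with adjusted p of 0.26, 0.29, 0.78 and 0.34. Other genes described above overlapped as measured between IFNg with the drug and IFNg alone. NR1H4 was at 52.6 to 55.7 CPM against 50.9 to 64.4 CPM, and BRD2 at 111 to 121 CPM against 117 to 126 CPM. The interaction passed in 5905 of 11451 genes (51.6%), and in 2335 after GC correction.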

How the data were processed

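HepG2 total RNA was depleted of ribosomal RNA and sequenced from directional libraries. The authors trimmed reads with Trimmomatic 0.33, aligned them to hg38 with STAR 2.7.1 and deposited STAR gene counts per library, which leave out reads aligned to several places; the annotation used is not given in the sources used here. The column of counts on the reverse strand was used as deposited. Genes passed edgeR's filterByExpr, and groups were compared by edgeR 4.0.16 quasi-likelihood tests in R 4.3.3 on the libraries of each comparison. Strict calls needed a log2 fold change of 1.5 in size and an adjusted p of 0.05. GC correction used a lowess trend (span 0.3) of log2 CPM on the GC content of the longest GENCODE 44 transcript, as offsets. Named genes were the 3 markers, the 10 largest changes each way at a mean log2 CPM of 3 or more without overlap, up to 4 calls per list, BET proteins, markers of other cell types and strict calls. Members and lists were chosen with earlier results of these data known. PA2G4, PXDC1 and PRRC1 were named after their values were seen. The fits were checked on simulated counts. Alternatives covered DESeq2 1.42.0, scaling, filters, GC, length, thinning, the replicate block and each left-out library. Some genes these rules select, and 2 lists in the plot, are not reported here.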

Additional observations from a re-analysis of the deposited data

Results flagged for a closer look

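Several named genes responded differently to 50 nM ABBV-744 with and without IFNg, by the interaction of drug and IFNg in edgeR's quasi-likelihood test over 12 libraries. The value is the log2 fold change with IFNg minus that without. Over all genes the interaction passed in 5905 of 11451 (51.6%), and in 2335 after GC correction. Passing as measured therefore does not set the named genes apart. The genes were named for large changes without IFNg, which this value subtracts. That choice by itself favours values of the opposite sign. Among genes raised without IFNg it was -0.50 for DHRS2 (adjusted p = 5.88e-05), -1.22 for TAF6 (0.0042), -0.91 for TST (2.28e-04), -1.35 for SUGP1 (0.0027), -0.82 for ASF1B (2.35e-04), -1.05 for RAVER1 (1.12e-04), -1.12 for MBD6 (0.0021) and -0.41 for MT2A (0.022). Among genes lowered without IFNg it was 1.10 for GPAM (4.50e-06), 1.74 for SCN1A (5.24e-04), 1.40 for SLC2A2 (1.13e-05), 0.89 for CCL20 (1.17e-04) and 1.12 for PDZK1 (9.80e-04). The relation of fold change with GC content had opposite signs in the 2 settings, and after GC correction GPAM at 0.45 (adjusted p = 0.0089) and PDZK1 at 1.03 (0.0042) alone of these 13 genes passed.

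The 3 genes that differed between the doses of ABBV-744 also differed by IFNg, as did 51.6% of all genes tested as measured. After GC correction the interaction passed in 2335 of 11451 genes. The interaction was -1.65 for PXDC1 (adjusted p = 9.69e-09), -1.59 for PA2G4 (3.53e-10) and -0.60 for PRRC1 (0.0056). After GC correction the values were -1.09 (2.98e-06), -1.44 (2.25e-11) and -1.73 (5.81e-10), and all 3 passed. These genes were chosen for their difference between doses, in a comparison that uses the same 50 nM libraries.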

How the results depend on the processing

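Of 147 named genes called, 66 kept direction and call in every alternative that gave them an adjusted p, and none reversed. An alternative that filtered a gene out or gave it no adjusted p was not counted. GC correction ended 44 calls and the replicate block 18. The 20 called genes among the largest changes and markers kept theirs in the alternatives counted. These numbered 21 for DHRS2 but 19 for SCN1A, CLDN2 and AKR1D1. For 50 nM ABBV-744 over DMSO, genes higher and lower numbered 542 and 604 with DESeq2 (strict 1 and 2), 400 and 460 with DESeq2 without independent filtering (strict 5 and 12; added after seeing the data), 415 and 1220 with library size only, where 25.4% of calls were higher against 46.6%, 623 and 573 with GC correction (strict up 5), 476 and 426 with GC correction and replicate block (strict up 6), and 488 and 492 with GC correction leaving out ABBV-744 replicate 2 (added after seeing the data). Strict calls were 16 up and 43 down without a filter, 2 and 2 with 10 counts in every library, and 5 up after thinning. Same-numbered libraries deviated with correlations of -0.14, -0.14 and 0.01, so the numbers were not taken to pair them. These few correlations cannot decide whether the libraries were paired, and the sources used here do not say. The replicate block gave 662 and 859. Leaving out single libraries gave 330 to 1203 higher and 379 to 1468 lower, 8 to 12 strict up and 19 to 38 strict down, and Spearman's correlation with GC content of 0.46 to 0.61, the lowest without ABBV-744 replicate 2.

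Between doses, genes higher and lower at 500 nM were 1 and 4 with DESeq2, 1 and 2 with library size only, 2 and 11 without a filter, 1 and 8 with all 24 libraries, 180 and 140 with the replicate block (which also passed DHRS2, GPAM and HEXIM1, with adjusted p of 2.55e-16, 0.012 and 9.49e-04; same-numbered libraries of the doses deviated with correlations of 0.28, 0.38 and 0.05, and replicate 3 at 50 nM correlated best with another number, at 0.16, so the numbers were not taken to pair them), 1 and 15 with GC correction, 1 and 7 with length correction, 54 and 89 with GC correction and replicate block, and 0 to 1 and 0 to 9 leaving out single libraries. ABBV-075 over ABBV-744 gave 1371 to 2946 and 1194 to 2776 leaving out single libraries, and CCL20, at 0.07 as measured, reversed to -0.81 with GC correction and -0.78 with replicate block added. With IFNg, 1818 genes were higher with GC correction and 1813 with replicate block added, and 2737 to 3120 and 2271 to 2703 were higher and lower leaving out single libraries. The interaction gave 1740 lower with library size only, 1071 and 1264 with GC correction, 1063 and 1237 with replicate block added, and 2613 to 2911 and 2614 to 3071 leaving out single libraries; its values for MT2A and CCL20, -0.41 and 0.89 as measured, reversed to 0.078 and -0.41 with GC correction and 0.081 and -0.42 with replicate block added. The cause of these changes was not tested. Counts of 3174722 to 4304103 per library limit genes below about 3 on the log2 CPM scale, where 24 of 31 strict calls lie.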

Other observations

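PA2G4, which binds ERBB3 and takes part in growth control, was at 77.1 to 92.8 CPM with IFNg and 50 nM ABBV-744 and at 88.2 to 96.3 CPM with IFNg and 500 nM. Without IFNg it was at 206 to 234 CPM at 50 nM and 123 to 129 CPM at 500 nM, and with 50 nM ABBV-075 at 64.6 to 76.5 CPM. The 50 nM libraries with and without IFNg therefore did not overlap, while the 2 doses with IFNg did. With IFNg alone PA2G4 was at 261 to 288 CPM, and with DMSO at 221 to 264 CPM. How many other genes had such a pattern was not counted. PXDC1 was at 18.1 to 18.8 CPM with IFNg and 50 nM ABBV-744, and at 17.0 to 26.8 CPM with IFNg and 500 nM. It was at 49.2 to 55.6 CPM at 50 nM without IFNg, and at 69.6 to 78.5 CPM with IFNg alone. The comparisons with 500 nM under IFNg were not tested.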
